A study of Mus musculus with 4 samples.

Results

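The 10 genes described here are markers of cardiac fibroblasts, given as a list of gene symbols: Pdgfra, Tcf21, Lum, Dcn, Ogn, Dpt, Fbln1, Mfap4, Postn and Gsn. Each was found by its gene number among 18781 named mouse genes on an expression array, and all 10 had a probe set. The collagen genes are not among them. RNA was measured in dissected heart chambers of mice of 2 months of age, of both sexes, in 4 groups: Mef2a knockout (KO, Mef2a-/-) atria, wild type (WT, Mef2a+/+) atria, KO ventricles and WT ventricles. Mef2a encodes a MADS-box transcription factor of muscle. Each group was 1 array, hybridised with RNA pooled from 7 mice, so there was no replicate array and no spread between replicates, and no p-values are given. All differences below describe these pools. The labels name no Cre or other transgene and do not describe the deleted part of Mef2a.

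Fibroblasts are the main matrix-producing cells of the heart. They lie between the cardiomyocytes, secrete and remodel the collagen network, and respond to growth factors such as PDGF and TGF-beta after injury. Many of them descend from the epicardium, a step for which the mouse factor TCF21 is required. The markers fall into groups by role: a surface receptor (Pdgfra), a nuclear factor (Tcf21), small leucine-rich proteoglycans that bind collagen fibrils (Lum, Dcn, Ogn), other matrix proteins (Dpt, Fbln1, Mfap4, Postn) and an actin-severing protein (Gsn). Several are also made by other cells, Gsn in particular.

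Values are log2 intensities, so a difference of 1 is a doubling, and the sign of a ratio gives the first-named group over the second. A gene was counted as past the fold at 1.5-fold between genotypes (0.58 on the log2 scale) or 2-fold between chambers, when the brighter array of the pair reached the median of the whole table, 5.71, which is called the floor. All 10 markers lay above this floor on all 4 arrays. The array medians ran from 5.66 to 5.75, and the KO atria array was the most compressed, with an interquartile range of 2.97 against 3.18 to 3.21 on the other arrays. Mef2a itself read 10.41 in KO atria and 10.32 in WT atria, and 10.34 in KO ventricles and 10.28 in WT ventricles. The probe set therefore did not check the genotype, and each genotype direction rests on the labels. Chamber labels could be read from the light chain genes of cardiomyocytes: the atrial gene Myl7 was higher in atria by 5.55 (KO) and 5.11 (WT), and the ventricular gene Myl2 was lower in atria by log2 ratios of -1.90 (KO) and -1.87 (WT).

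All 10 fibroblast markers were lower in KO than in WT pools in both chambers, as were 32.1% of 9436 genes above the floor in both. The difference was larger in atria for every marker except Postn. In ventricles Ogn, Lum, Mfap4 and Dcn lay near 0, at -0.03 to -0.08. Lum, Pdgfra and Dpt were at least 1.5-fold lower in KO atria, as were 2.01% of 10050 genes above the floor. Pdgfra and Dpt fell short of 1.5-fold under other scalings given below. Lumican mRNA had the largest difference, 1.79-fold. No marker reached 1.5-fold in ventricles, where 0.69% of 9712 genes were lower by that much. In 9 of 10 genes the arrays stood in the same order, highest in WT atria, then KO atria, WT ventricles and KO ventricles, an order found in 10.1% of 10326 genes above the floor on at least 1 array. Ogn was the exception, with ventricles above atria. In whole tissue, fewer fibroblasts and less of each mRNA per fibroblast cannot be told apart.

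**Figure D1:**
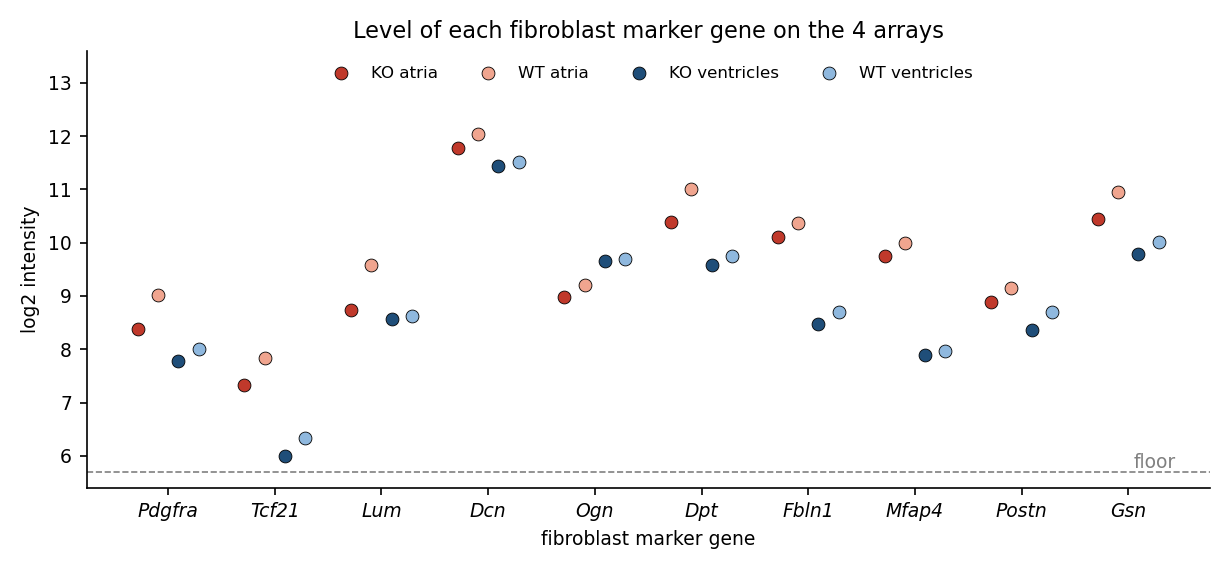
Log2 intensity of the 10 fibroblast markers (horizontal axis) on the 4 arrays, 1 point per array: KO atria, WT atria, KO ventricles and WT ventricles from left to right within each gene. The dashed line is the floor at 5.71. Points are to be compared within a gene, since probe sets differ in brightness, and the WT atria point is the highest for every gene except Ogn.

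Pdgfra encodes the PDGF receptor alpha, the surface receptor used to sort fibroblasts. Its level was 8.38 in KO atria, against 9.01 in WT atria, and 7.78 in KO ventricles, against 8.0 in WT ventricles. The genotype ratio was -0.63 in atria, or 1.55-fold lower in KO, and -0.22 in ventricles. The levels stepped down from WT atria to KO atria, WT ventricles and KO ventricles, with the widest step between the atrial arrays.

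Tcf21 encodes a basic helix-loop-helix factor of fibroblast precursors and fibroblasts. It read 7.33 in KO atria and 7.84 in WT atria, and 6.0 in KO ventricles and 6.33 in WT ventricles. In log2 ratio this was -0.51 in atria and -0.34 in ventricles, and no other marker had a lower ventricular ratio. The ventricular values lay close to the floor, where the normalization method compresses differences.

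The proteoglycan genes parted from each other in atria. Lum, for lumican, which spaces collagen fibrils, read 8.73 in KO atria and 9.57 in WT atria, and 8.57 in KO ventricles and 8.62 in WT ventricles. Its ratio of -0.84 in atria stood beside -0.05 in ventricles, so that KO atria lay within 0.16 of both ventricular levels. Dcn, for decorin, which binds collagen and TGF-beta, read 11.77 in KO atria and 12.04 in WT atria, and 11.44 in KO ventricles and 11.51 in WT ventricles, with ratios of -0.27 and -0.08. Ogn, for osteoglycin, read 8.98 in KO atria and 9.21 in WT atria, and 9.66 in KO ventricles and 9.69 in WT ventricles. Its ratios of -0.23 in atria and -0.03 in ventricles were the smallest of the 10 in both chambers.

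Among the other matrix genes Dpt stood out. Dermatopontin, its product, helps collagen fibrils assemble. Dpt read 10.39 in KO atria and 11.01 in WT atria, and 9.58 in KO ventricles and 9.74 in WT ventricles, with ratios of -0.62 (1.54-fold lower in KO) and -0.16. Fbln1, for fibulin 1, a protein of basement membranes and elastic fibres, read 10.11 in KO atria and 10.38 in WT atria, and 8.47 in KO ventricles and 8.69 in WT ventricles. Its ratios were alike in the chambers, at -0.27 and -0.22. Mfap4, for a microfibril-associated glycoprotein, read 9.75 in KO atria and 10 in WT atria, and 7.89 in KO ventricles and 7.97 in WT ventricles, with ratios of -0.25 and -0.07. Postn, for periostin, a matricellular protein that rises in injured hearts and in valves, read 8.89 in KO atria and 9.16 in WT atria, and 8.36 in KO ventricles and 8.70 in WT ventricles. It was the only marker of the 10 whose ratio was further from 0 in ventricles (-0.34) than in atria (-0.27).

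Gsn encodes gelsolin, which severs and caps actin filaments and is also secreted into plasma. Its level was 10.45 in KO atria and 10.95 in WT atria, and 9.78 in KO ventricles and 10.01 in WT ventricles. The ratio of -0.23 in ventricles was close to that of Pdgfra (-0.22), while in atria Gsn was at -0.50 and Pdgfra at -0.63.

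**Figure D2:**
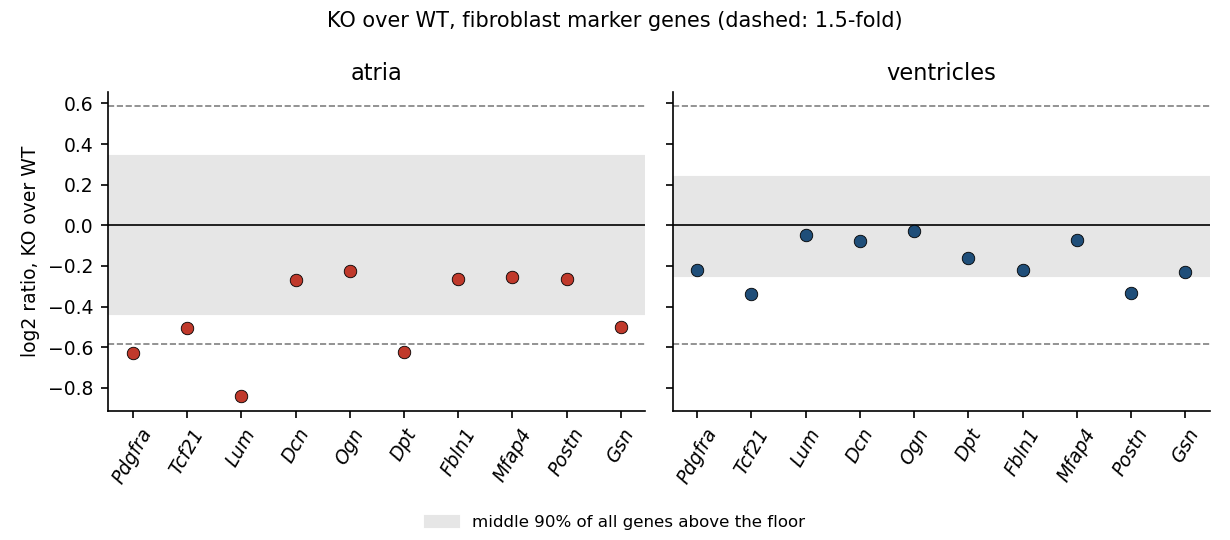
Log2 ratio of KO over WT for each marker, in atria (left) and ventricles (right), 1 point per gene from 1 array of each group. The grey band holds the middle 90% of all genes above the floor and dashed lines mark 1.5-fold; all 10 points lie below 0 in both panels, with 3 past the lower line in atria and 0 in ventricles.

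The stretches of genome before the start sites are shown for the receptor and the matrix gene past 1.5-fold in KO atria, for the nuclear factor, and for Ogn, whose chamber difference ran the other way. Each is the 250 bases before the RefSeq start on assembly GRCm38.p6, 5' to 3' on the gene's strand. Capitals mark every CANNTG, the E-box bound by helix-loop-helix factors such as TCF21, and every TATAAA, on either strand.
Pdgfra, chr5:75152001-75152250, plus strand: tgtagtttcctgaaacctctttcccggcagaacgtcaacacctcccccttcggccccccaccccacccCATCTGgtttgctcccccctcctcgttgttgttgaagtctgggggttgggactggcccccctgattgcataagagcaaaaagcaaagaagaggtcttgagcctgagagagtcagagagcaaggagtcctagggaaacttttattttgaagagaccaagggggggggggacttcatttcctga
Dpt, chr1:164796413-164796662, plus strand: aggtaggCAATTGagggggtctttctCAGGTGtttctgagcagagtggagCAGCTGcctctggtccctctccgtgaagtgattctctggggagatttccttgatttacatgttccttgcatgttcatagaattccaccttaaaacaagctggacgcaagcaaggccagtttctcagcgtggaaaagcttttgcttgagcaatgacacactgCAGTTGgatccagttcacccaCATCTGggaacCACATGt
Tcf21, chr10:22820144-22820393, minus strand: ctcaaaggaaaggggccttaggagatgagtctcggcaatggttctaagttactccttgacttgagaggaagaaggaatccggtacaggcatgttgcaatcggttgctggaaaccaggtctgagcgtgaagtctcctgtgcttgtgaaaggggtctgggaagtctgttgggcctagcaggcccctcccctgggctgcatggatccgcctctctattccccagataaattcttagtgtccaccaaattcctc
Ogn, chr13:49607765-49608014, plus strand: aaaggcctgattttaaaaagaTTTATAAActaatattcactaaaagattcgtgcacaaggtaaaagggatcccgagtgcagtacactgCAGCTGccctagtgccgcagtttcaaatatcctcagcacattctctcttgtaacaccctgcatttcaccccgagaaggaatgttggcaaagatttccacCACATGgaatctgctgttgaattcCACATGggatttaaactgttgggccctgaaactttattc
Pdgfra held 1 E-box, Dpt 6, Tcf21 0 and Ogn 3, while 66.2% of 32536 such windows over the genome held at least 1. In Dpt and in Ogn 1 of these was CAGCTG, which 13.1% of all windows held. Ogn also had 2 overlapping TATAAA matches on opposite strands (12.3% of windows had a match). The MEF2 motif (2.89% of windows), the CArG box of serum response factor (1.48%) and the AP-1 motif TGANTCA (6.73%) had no match in the 11 windows of the 7 markers with an entry. These letters say nothing on more distant elements. Lum, Dcn and Mfap4 were not among the entries.

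Knockout atria against wild type atria showed 3 of 10 markers at least 1.5-fold lower and 0 higher, where 2.01% of 10050 genes that cleared the floor passed 1.5-fold downward and 1.02% upward. The markers had a median ratio of -0.39, against -0.03 for all genes above the floor, of which 56.9% were negative. Lum lay below all but 0.716% of those genes, Pdgfra below all but 1.71% and Dpt below all but 1.75%. Next came Tcf21, with 3.22% of genes below it, and Gsn, with 3.28%. The other 5 markers had 14.4% to 18.9% of genes below them, inside the middle 90% of genes (-0.44 to 0.34). The split of the list into 5 markers near or past 1.5-fold and 5 between -0.23 and -0.27 ran across the roles. Summed over the 10 markers, linear intensity was 10099 in KO atria and 13281 in WT atria. Dcn, the brightest marker, weighs most in this sum, while Tcf21, the dimmest, added 161 in KO atria and 229 in WT atria. Under quantile normalization or lowess centring Lum alone stayed past 1.5-fold, with Pdgfra at -0.57 and -0.58 and Dpt at -0.55 and -0.58.

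Knockout ventricles against wild type ventricles gave 0 of 10 markers past 1.5-fold, against 0.69% of 9712 genes lower and 0.515% higher. The markers' median was -0.19, beside 0.00 for all genes, of which 48.6% were negative. Tcf21 and Postn had 2.38% and 2.46% of genes below them and lay outside the middle 90% (-0.25 to 0.24). Gsn, Fbln1, Pdgfra and Dpt had 5.91%, 6.41%, 6.62% and 11.2% of genes below them. Ogn, Lum, Mfap4 and Dcn, with 25.4% to 38.6%, lay well inside. The order of the markers thus differed between chambers, Lum being the lowest in atria and next to the highest in ventricles. Summed linear intensity, again weighted toward Dcn, was 6812 in KO ventricles and 7446 in WT ventricles.

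The atrial and ventricular genotype comparisons share no array, though the labels do not say whether the same mice gave both chambers. Negative ratios in both were seen for 10 of 10 markers and for 32.1% of 9436 genes above the floor in both chambers. The ratio was lower in atria than in ventricles for 9 of 10 markers and for 58.6% of those genes. Lum differed most between chambers, by -0.79 (atria minus ventricles), followed by Dpt at -0.46 and Pdgfra at -0.41. Fbln1 at -0.04 and Postn at 0.07 differed least. No replicate spread was available for these differences, so they were not tested.

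The chambers were also compared within each genotype, KO and then WT. In KO, 3 of 10 markers passed 2-fold upward in atria and 0 downward, against 3.46% of 10120 genes higher and 2.85% lower. In WT, 5 of 10 passed 2-fold upward in atria and 0 downward, against 3.89% of 10034 genes higher and 2.21% lower. Mfap4 had the largest ratios, 1.86 in KO and 2.03 in WT (4.09-fold). It was followed by Fbln1 at 1.64 in KO and 1.69 in WT, and by Tcf21 at 1.34 and 1.504. For Dpt the ratio was 0.81 in KO and 1.27 in WT, and for Pdgfra 0.60 and 1.01, so that both were past 2-fold in WT pools alone. Pdgfra in WT was close to the threshold, at 0.98 under median centring.

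Lum and Gsn lay just under 2-fold in WT. Lum was higher in atria by 0.16 in KO and by 0.95 in WT, and Gsn by 0.67 and 0.94. Dcn gave 0.33 in KO and 0.53 in WT, and Postn 0.53 and 0.46. Ogn was the single marker higher in ventricles, with ratios of -0.68 in KO and -0.48 in WT. The markers' median was 0.64 in KO and 0.98 in WT, beside -0.05 and -0.01 for all genes. These chamber ratios use the same 4 values as the genotype ratios, so the smaller chamber difference in KO and the larger genotype difference in atria are 1 observation.

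**Figure D3:**
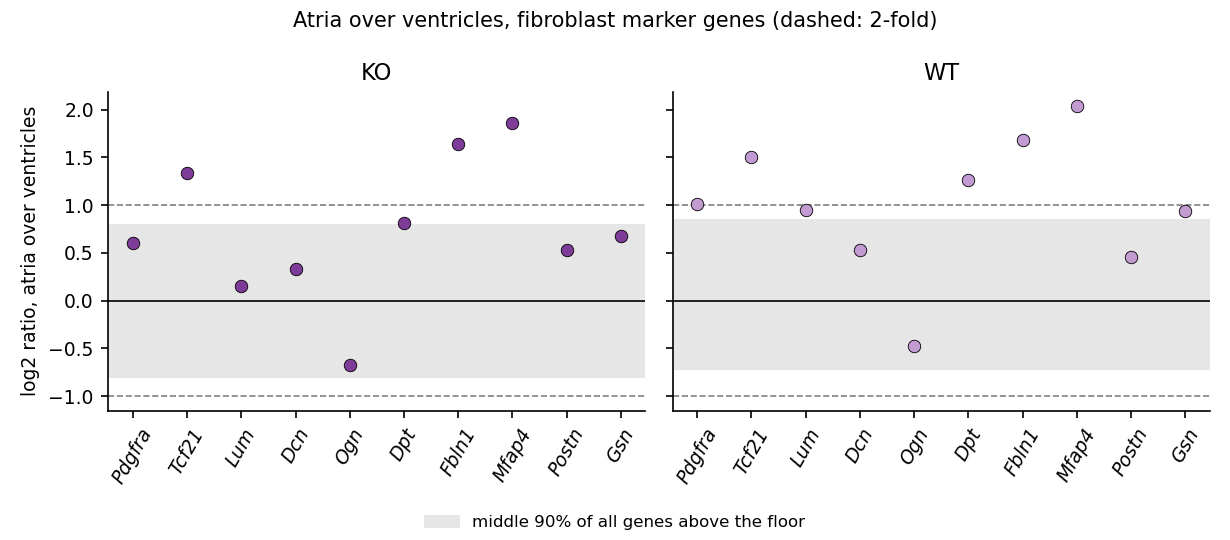
Log2 ratio of atria over ventricles for each marker in KO (left) and WT (right), 1 point per gene. The grey band holds the middle 90% of all genes above the floor and dashed lines mark 2-fold; Mfap4, Fbln1 and Tcf21 lie above the upper line in both panels, Dpt and Pdgfra in WT, and Ogn is below 0 in both.

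Other fibroblast and mesenchymal genes, a list of 30 of which 28 had a probe set, were set beside the markers. In KO atria against WT atria 21 of 27 above the floor were negative, beside 56.9% of all genes above the floor. Their median was -0.21. Medag (-0.77), an adipogenesis gene of mesenchymal cells, and Cxcl12 (-0.65), a chemokine that retains blood progenitors, were at least 1.5-fold lower. Meox1, a homeobox factor of activated mouse fibroblasts, was higher by 0.78 but cleared the floor in KO atria alone (5.78, against 5.001 in WT atria). In ventricles 15 of 27 were negative, beside 48.6% of all genes. The ventricular median was -0.03, its sign turned under median centring, and Cxcl12 (-0.84) was the one member past 1.5-fold.

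Relatives of the markers were read family by family, without the members themselves. Of 6 proteoglycan genes above the floor in atria, 3 were negative, with Ecm2 at -0.76 and Bgn, for biglycan, at -0.10. Among 5 fibulins and hemicentins the atrial median was 0.12, with Fbln2 at 0.34 and Efemp1 at -0.30, and Efemp1 was lower by -0.69 in ventricles. None of 11 genes listed for microfibrils and elastic fibres reached 1.5-fold in either chamber. In atria the largest were Mfap1a (-0.49), listed by its symbol and not by a role in fibres, and the elastin gene Eln (-0.38). In ventricles the largest was the TGF-beta binding protein gene Ltbp1 (-0.50). Of 10 matricellular genes in atria 0 passed, Thbs2, for thrombospondin 2, being lowest at -0.53. In the gelsolin superfamily Scin was at -0.98 in atria, where it read 4.74 in KO, under the floor, and 5.72 in WT, just above it. Among helix-loop-helix factors related to Tcf21, Scx, the tendon factor scleraxis, was higher in KO by 0.98 in atria, where the WT level of 5.59 lay under the floor, and by 0.81 in ventricles.

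Growth factor genes upstream of fibroblasts differed singly. Pdgfc, a ligand of the PDGF receptor alpha, read 7.23 in KO atria and 7.94 in WT atria, and 5.34 in KO ventricles and 5.68 in WT ventricles. Its atrial ratio was -0.71, while the other PDGF ligands and Pdgfrb stayed under 1.5-fold. Tgfb2, a TGF-beta ligand, read 6.38 in KO atria and 7.11 in WT atria, and 6.58 in KO ventricles and 6.50 in WT ventricles. Of 14 TGF-beta ligands, receptors and SMAD genes, Tgfb2 (-0.73 in atria) alone reached 1.5-fold.

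Genes listed for activated fibroblasts and myofibroblasts, the contractile matrix-producing state, had positive medians, 0.14 over 11 genes in atria and 0.19 over 10 in ventricles. Postn, whose product rises in injured hearts, was counted among the markers and not in this list. It was lower in KO in both chambers, at -0.27 in atria and -0.34 in ventricles. Higher in KO atria past 1.5-fold were Ccn2 (0.86), for connective tissue growth factor, Meox1, Ddah1 (0.63) and the smooth muscle actin gene Acta2 (0.61), and lower was the calponin gene Cnn1 (-1.29). In ventricles Ccn2 (0.69) passed. Acta2 and Cnn1 were also in the list of smooth muscle and pericyte genes. Cthrc1, Cilp, Fap, Tnc and Lox, further genes of the activated fibroblast list, were below the floor on every array. Acta2 was under 1.5-fold with median centring, and Cxcl12, Meox1 and Ddah1 with a pseudocount of 16 on the linear scale.

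Markers of other cell types were read on the same arrays. In KO atria against WT atria the median was -0.04 for 12 cardiomyocyte genes, 0.01 for 11 epicardial, 0.04 for 11 smooth muscle and pericyte and 0.03 for 11 macrophage genes. All but the smooth muscle median turned sign under another scaling. Over all genes above the floor, 56.9% were negative in atria and 48.6% in ventricles. Of 12 cardiomyocyte genes, 10 were negative in atria and 10 in ventricles, where their median was -0.03. Of the epicardial genes, 6 were positive and 5 negative in atria. Krt18 alone of these passed 1.5-fold, at 0.60, but not with median centring or a pseudocount of 16. Endothelial genes had a median of 0.10, with 10 of 13 positive and Robo4 at 0.36. Of 5 adipocyte genes that reached the floor in KO or WT atria all 5 were negative, and Car3 (-2.09) and Retn (-1.07) were past 1.5-fold. Between the atrial arrays, both genes reached the floor in WT atria alone. Car3 read 5.50 in KO atria and 7.58 in WT atria, and Retn 4.66 in KO atria and 5.73 in WT atria. In ventricles Car3 went the other way, at 6.48 in KO and 5.74 in WT, a ratio of 0.74. There 3 of 4 adipocyte genes above the floor were positive. The defining genes Adipoq, Plin1, Cidec and Lep lay below the floor on every array. The summed linear intensity of the adipocyte list was 1685 in KO atria and 2127 in WT atria, and its part in the marker differences was not tested. Fabp4 made up most of this sum, at 10.24 in KO atria and 10.51 in WT atria, so the sum follows that gene more than the list. Fabp4 was brighter in ventricles, at 10.89 in KO and 11.03 in WT. In KO ventricles against WT ventricles 9 of 10 macrophage genes were negative (median -0.13, Cd163 at -0.32), with a summed intensity of 1838 in KO and 1987 in WT, again not tested against the markers. All 7 Schwann cell and neuron genes with a probe set were below the floor. Of 4 tendon and cartilage genes that reached the floor in KO or WT atria, the same gene Scx was the one past 1.5-fold.

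**Figure D4:**
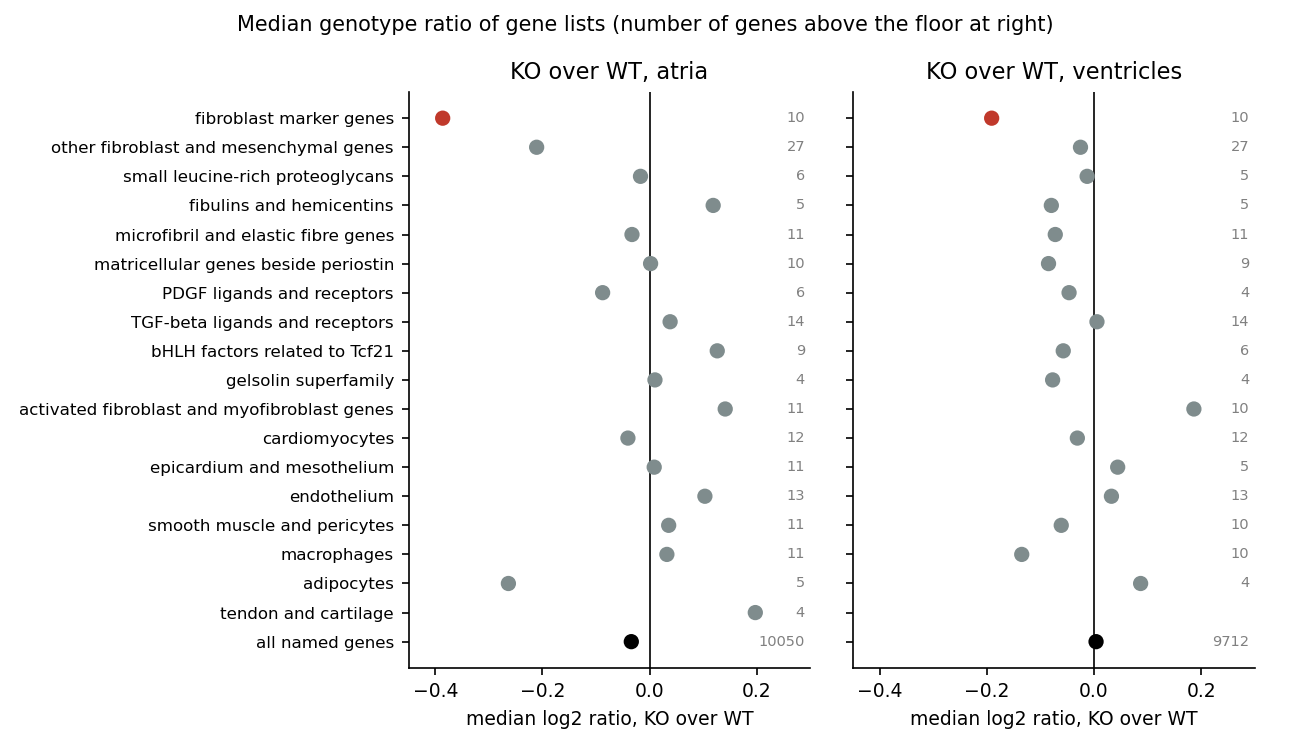
Median log2 ratio of KO over WT for each gene list, in atria (left) and ventricles (right), over the members above the floor (their number stands at the right edge; lists with fewer than 4 are left out). The fibroblast markers (red) have the lowest median in both panels, -0.39 and -0.19, and all named genes (black) stand at -0.03 and 0.00.

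Between chambers, genes of the epicardium and mesothelium were also read. Of 12 with a probe set, 4 lay above the floor on every array, and these were higher in atria: Gpm6a by 2.69 in KO and 2.97 in WT, Upk3b by 2.52 and 2.69, Aldh1a2 by 0.96 and 1.26 and Wt1 by 0.36 and 0.44. Others, such as Upk1b and Lrrn4, were under the floor in ventricles, and Tbx18 (0.06 in KO) turned sign with lowess or median centring and with quantile normalization. The summed linear intensity of the list was 1903 in KO atria and 602 in KO ventricles, and 1945 in WT atria and 558 in WT ventricles, and its part in the marker ratios was not tested. Further fibroblast genes had a chamber median of 0.23 in KO and 0.64 in WT. Of these, Ecm1 (1.72 and 1.52) and Igfbp6 (1.52 and 1.59) were past 2-fold in both genotypes. Cxcl12 was higher in ventricles, with ratios of -0.87 in KO and -1.06 in WT. The WT ratio of Cxcl12 was under 2-fold with a pseudocount of 16. Podn, a proteoglycan gene related to Lum, was higher in atria by 3.67 in KO and 3.78 in WT. Pdgfc was higher in atria by 1.89 and 2.26, from ventricular levels under the floor, and Efemp1 by 2.09 and 1.69. By contrast, smooth muscle and pericyte genes had negative medians, -0.36 in KO and -0.41 in WT. Of 11 genes, 7 were negative in KO and 8 in WT, beside 55.4% and 51.5% of all genes above the floor. The lowest was Abcc9 (-1.88 and -1.97). Cnn1 went the other way, higher in atria by 1.20 in KO and 2.47 in WT, from ventricular levels under the floor.

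Several markers lie in gene clusters of related proteoglycans. Dcn and Lum are next to each other on chromosome 10, followed by Kera and Epyc, 2 proteoglycan genes of cornea and cartilage, which were below the floor on every array. Ogn lies on chromosome 13 beside Omd, also below the floor, and Aspn, for asporin. Aspn, like Ogn, was brighter in ventricles. It read 7.75 in KO atria and 9.01 in KO ventricles, and 8.05 in WT atria and 8.85 in WT ventricles. Its chamber ratio was -1.26 in KO and -0.80 in WT.

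The named genes closest in pattern to the markers were found from the 4 values of each gene, centred on the gene's own mean, among 8751 genes above the floor on every array. Closest to the mean pattern of the markers was Wls, which carries Wnt proteins to the cell surface, with a root mean square difference of 0.03 in log2 units. It read 8.91 in KO atria and 9.28 in WT atria, and 8.14 in KO ventricles and 8.27 in WT ventricles. Ndn, Tspan18, Epha7 and the sodium channel gene Scn7a followed at 0.05. For Lum the closest were Ifi207 (0.04), Medag (0.05) and Matn2 (0.06), and for Pdgfra Pqlc3 (0.02), Gsn (0.04) and Cdc14b (0.05). With 4 values a gene, many patterns are alike, and these likenesses are given as descriptions.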

How the data were processed

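RNA of atria and ventricles of KO and WT mice was pooled from 7 mice for each of 4 arrays. Per the labels, Trizol RNA was biotin-labelled with a whole-transcript kit. The authors deposited log2 intensities, 1 per probe set, made with RMA and the affy package per the submitters' processing notes. Their versions, the array design and the genome build are not given in the sources used here. RMA compresses differences near background. Of 21212 probe sets, named through the platform annotation, 18786 had 1 symbol, 6 several and 2420 none. A RefSeq table of GRCm38.p6 named 18775 by gene number and 6 by accession, and 5 kept their names. The brightest probe set per symbol left 18781 genes. Each comparison is a difference of 2 log2 values, computed in Python 3.11.15 with pandas 2.3.3 and statsmodels 0.14.6. No group had a second array, so there is no replicate error. An additive fit of genotype and chamber would leave 1 residual degree of freedom and was not run. The number of arrays limits the precision. Counting past the fold was tested on simulated data.

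The 10 markers, the 18 other lists (201 of 213 genes with a probe set) and the comparisons were chosen with earlier results of these data known. Named besides the markers were up to 4 genes per list and direction past the fold, or the 2 of largest size, and the genes closest in pattern. Relatives, neighbours in gene order, the defining markers below the floor and the values of Mef2a, Myl7 and Myl2 are given as context; Bgn and Aspn were named after their values were seen. Alternatives were median centring, quantile normalization, lowess centring (30% span), other floors and folds, and a linear pseudocount of 16.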

Additional observations from a re-analysis of the deposited data

How the results depend on the processing

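All 160 marker ratios recomputed under median centring, quantile normalization, lowess centring or a pseudocount of 16 kept their sign, and 139 also kept their side of the fold and moved by at most 0.1 in log2 units. The count of markers past 1.5-fold in KO atria against WT atria was 3 and became 1 under quantile normalization and 1 under lowess centring, and 0 at 2-fold. In KO atria against KO ventricles the median of 0.64 became 0.76 under lowess centring, and the count of 3 past 2-fold became 7 at 1.5-fold, 6 higher in atria and 1, Ogn, lower. Other counts and medians of the 4 comparisons stayed within 1.5 times or 0.1 of their values under every alternative run. No replicate could be left out with 1 array per group. The labels carry no replicate numbers to pair. A fit with chamber as a block, leaving 1 residual degree of freedom, was not run, since its error would be the difference of the genotype ratio between chambers, not the spread among mice. A floor at the 75th percentile (7.27) removed Tcf21 from the ventricular comparison, leaving 9 markers with a median of -0.16.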

Other observations

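Near Tcf21 on chromosome 10, with 1 protein-coding gene between them, lies Slc2a12, which encodes a glucose transporter. It read 6.51 in KO atria and 7.52 in WT atria, and 6.65 in KO ventricles and 7.51 in WT ventricles, and was named after its values were seen. Its genotype ratios were -1.01 and -0.86, past 1.5-fold in both chambers, while its chamber ratios were -0.14 in KO and 0.01 in WT. Tbpl1, the gene between them, had genotype ratios of -0.41 in atria and -0.06 in ventricles. Between chambers Slc2a12 therefore differed less than Tcf21, which was higher in atria by 1.34 in KO and 1.504 in WT.

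Among the genes closest to single markers, Abi3bp, a matrix protein gene, was nearest to Tcf21 (0.06). It read 7.79 in KO atria and 8.34 in WT atria, and 6.61 in KO ventricles and 6.84 in WT ventricles. Itgbl1 was nearest to Postn (0.03), and Gucy1a1, a subunit of the nitric oxide receptor, was among the closest to Mfap4 (0.08).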
